A study of Solanum lycopersicum with 10 samples.

Results

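The epidermis of the tomato fruit carries the cuticle, a layer of cutin polyester and wax over the outer cell wall, and its cells are specified and supplied by transcription factors of a few families. The genes described here are 10 listed tomato genes of this kind, taken by identifier as SlCD2, Woolly and a further pair of HD-ZIP IV genes, the MYB genes SlMIXTA-like, SlMX1 and SlMYB31, and the SHINE genes SlSHN1, SlSHN2 and SlSHN3. Of the 35288 genes in the deposited tables, 9 were these genes. SlSHN3 (Solyc06g053240) was not analysed here. RNA was sequenced from wild-type tomato cv. Ailsa Craig in red ripe exocarp, mature green exocarp, red ripe mesocarp, mature green mesocarp and leaves, with 2 biological replicates of each tissue and 10 libraries in all. Exocarp here means the outer fruit tissue with the epidermis, or skin, and mesocarp the flesh under it. The leaf samples were pooled from both developmental stages.

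HD-ZIP IV proteins are plant homeodomain proteins with a leucine zipper, and in Arabidopsis members of this class specify the epidermal cell layer. MIXTA-type MYB proteins shape epidermal cells and act on the cuticle. SHINE proteins are ERF-type factors that switch on cutin and wax genes, first described in Arabidopsis. These factors stand upstream of the enzymes that build cutin and wax. Their transcripts show in which organs and stages RNA of the regulators was found, and not how much protein or cuticle was made.

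Total counts ran from 30945619 to 45637676 per library. For a library with no count of a gene, 3 counts was taken as the upper limit of its level, for counting error only. This corresponded to 0.0692 to 0.101 CPM (counts scaled to a common library size) after scaling by TMM (edgeR's trimmed mean of M values). Levels are given below as the authors' FPKM, which divides the count by transcript length and library size and can be compared between genes. Differences are log2 fold changes from edgeR's quasi-likelihood test on the counts, with the standard error (SE) and a p-value adjusted over the 22801 genes tested, and a gene was called at an adjusted p under 0.05. Of the 9 genes, 8 passed the filter on low counts, and SlMX1 did not. The mature green exocarp replicates lay furthest apart over all genes, with 3.56% of the genes at 10 CPM or more differing at least 2-fold, against 0.0281% to 0.728% in the other tissues. The genes are spread over chromosomes 1, 2, 3, 10 and 12 by their identifiers, with SlMYB31, SlSHN1 and Solyc03g120620 all on chromosome 3.

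In red ripe exocarp the most abundant of these transcripts were SlCD2 and SlMYB31, and both had their highest level there. SlCD2 (Solyc01g091630.3) encodes an HD-ZIP IV protein, and mutation of the gene leaves tomato fruits deficient in cutin. Its FPKM in replicates 1 and 2 was 62.1 and 70.7 in red exocarp, 56.3 and 60.2 in green exocarp, 6.44 and 6.28 in red mesocarp, 6.74 and 6.72 in green mesocarp, and 30.0 and 31.7 in leaves. All 4 exocarp libraries lay above both leaf libraries, and both leaf libraries lay above all 4 mesocarp libraries. By mean FPKM, SlCD2 ranked 1649 among all genes of the tables in red exocarp and 3297 in leaves, but 10534 in red mesocarp and 12368 in green mesocarp. The mean of SlCD2 was 66.4 ± 6.14 FPKM (SD, n = 2, as for every tissue) in red exocarp and 6.36 ± 0.110 in red mesocarp, a 10.4-fold difference. At the green stage it was 58.3 ± 2.74 in exocarp and 6.73 ± 0.0175 in mesocarp, an 8.66-fold difference.

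SlMYB31 (Solyc03g116100.3) encodes an R2R3-MYB factor that acts on wax formation in the tomato cuticle. It had 56.6 and 64.4 FPKM in red exocarp, 18.1 and 43.7 in green exocarp, 1.89 and 1.51 in red mesocarp, 1.20 and 1.76 in green mesocarp, and 17.6 and 18.8 in leaves. Exocarp libraries of both stages lay far above every mesocarp library, and the green exocarp replicates lay so far apart that they spanned the leaf level. Replicate 1 of green exocarp was close to leaves, and replicate 2 was over them. In rank, SlMYB31 stood at 1817 of all genes in red exocarp, 4181 in green exocarp and 5620 in leaves, against 14437 in red mesocarp and 16866 in green mesocarp.

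SlMIXTA-like (Solyc02g088190.4), whose product acts on the shape of epidermal cells and on cuticle deposition in the tomato fruit, was highest in green exocarp. Its FPKM was 20.3 and 14.4 in red exocarp, 37.8 and 25.1 in green exocarp, 0.493 and 0.511 in red mesocarp, 1.52 and 1.67 in green mesocarp, and 11.6 and 13.0 in leaves. No neighbours in this order overlapped, although the lower red exocarp library was only slightly above the higher leaf library. The other MYB gene, SlMX1 (Solyc01g010910.2), has been described in tomato as a regulator of trichome formation. It had few or no counts everywhere, with 10 and 2 counts in red exocarp, 4 and 5 counts in leaves, and no count in any of the other 6 libraries. At these counts no difference between tissues could be given for SlMX1.

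The further HD-ZIP IV genes had unlike profiles. Solyc10g005330.3 was a leaf and skin gene, with 39.4 and 41.2 FPKM in leaves, its highest tissue. Its fruit levels were 12.3 and 7.71 FPKM in red exocarp, 27.8 and 26.9 in green exocarp, 0.798 and 0.960 in red mesocarp, and 3.14 and 2.30 in green mesocarp. The 5 tissues did not overlap in any neighbouring pair of this order, which ran from leaves through green exocarp, red exocarp and green mesocarp to red mesocarp. Solyc03g120620.3 was the flattest of the genes across exocarp and mesocarp, with 10.9 and 9.99 FPKM in red exocarp, 20.9 and 15.9 in green exocarp, 2.03 and 2.20 in red mesocarp, 7.76 and 8.33 in green mesocarp, and 5.30 and 5.25 in leaves. It was the only one of the 9 genes in which both green mesocarp libraries lay above both leaf libraries.

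Woolly (Solyc02g080260.4), an HD-ZIP IV gene required for trichome formation in tomato, was low in every tissue. Its FPKM was 1.41 and 0.922 in red exocarp, 0.599 and 1.17 in green exocarp, 0.109 and 0.252 in red mesocarp, 0.512 and 0.143 in green mesocarp, and 1.04 and 1.39 in leaves. These rest on 13 to 147 counts per library. Leaves and both exocarp tissues overlapped, and so did the 2 mesocarp tissues with each other, while the lowest exocarp library of each stage was above the highest mesocarp library of that stage.

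**Figure D1:**
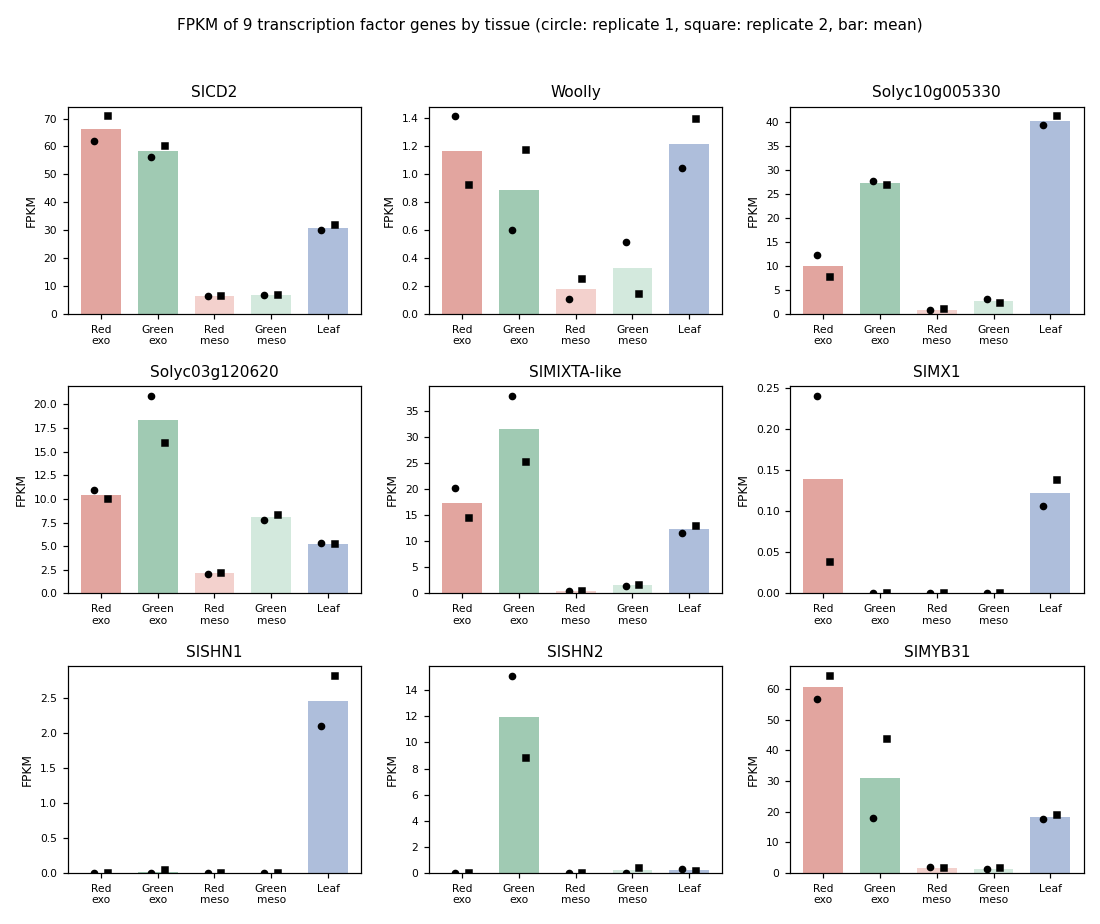
FPKM (y axis, linear from 0, a separate scale per gene) of 9 epidermal and cuticle transcription factor genes in red exocarp, green exocarp, red mesocarp, green mesocarp and leaves, with bars for the mean of 2 libraries, circles for replicate 1 and squares for replicate 2. SlCD2 stood at 56.3 to 70.7 FPKM in the exocarp libraries and 6.28 to 6.74 in the mesocarp libraries, SlSHN1 above 2 FPKM in leaves alone and SlSHN2 above 8 FPKM in green exocarp alone.

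SlSHN1 and SlSHN2 were each found at more than trace level in a single tissue, and not in the same one. SlSHN2 (Solyc12g009490.3) had 446 and 260 counts in green exocarp, or 15.1 and 8.81 FPKM. It had no count in red exocarp or red mesocarp, 0 and 10 counts in green mesocarp, and 8 and 4 counts in leaves. SlSHN1 (Solyc03g116610.3) had 88 and 112 counts in leaves, or 2.10 and 2.82 FPKM, and 0 and 2 counts in green exocarp, with no count in the other 6 fruit libraries. Green skin libraries were thus the high ones for SlSHN2 and leaf libraries for SlSHN1, with no overlap with other tissues, and neither gene had a count in red ripe fruit.

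In numbers, SlSHN2 was at least 95.5-fold lower in red exocarp than in green exocarp, taking 3 counts per library as the level of red exocarp, and was called (adjusted p = 0.0008 from edgeR). It was higher in green exocarp than in green mesocarp by 5.92 on the log2 scale (SE 0.95, adjusted p = 0.00399). That size rests on the 10 counts of green mesocarp replicate 2, since it was 4.93 without green mesocarp replicate 1 and 11.2 without replicate 2, where no count was left. SlSHN2 also stood over leaves in green exocarp, by 5.37 (SE 0.92, adjusted p = 0.00207). SlSHN1 was at least 38.2-fold lower in red exocarp, 40.0-fold lower in red mesocarp and 41.4-fold lower in green mesocarp than in leaves. In green exocarp 2 counts, both in replicate 2, stood against 200 counts in leaves, a ratio of leaves over green exocarp of 140 with an exact 95% interval of 38.3 to 1165 for counting error only. SlSHN1 was called lower than leaves in all 4 fruit tissues, with adjusted p-values of 0.000962 in red exocarp, 0.00141 in green exocarp, 0.000917 in red mesocarp and 0.00111 in green mesocarp. SlSHN1 passed the filter on low counts only through leaves, and SlSHN2 only through green exocarp. Their calls against other tissues were therefore largely given by that filter and are no separate support.

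The first comparison asked which of these regulators belong to the fruit skin rather than the flesh. At the red stage SlCD2, Woolly, Solyc10g005330, Solyc03g120620, SlMIXTA-like and SlMYB31 were called higher in exocarp than in mesocarp, which is 6 of the 8 genes tested, and none was called lower. Over all genes tested, 18.1% were called higher in red exocarp and 19.4% lower. The remaining pair of genes, SlSHN1 and SlSHN2, had no count in either red tissue. At the green stage SlCD2, Solyc10g005330, Solyc03g120620, SlMIXTA-like, SlSHN2 and SlMYB31 were called higher, again 6 of 8 with none lower, where 17.3% of all genes were higher and 19.0% lower. The SlSHN2 call among them was largely given by the filter on low counts. With library totals in place of TMM the 8 genes kept 6 higher and none lower at the green stage, while 3165 of the 8662 calls over all genes were higher. There were 5 genes called higher in exocarp at both stages, against 7.95% of all genes tested. The median log2 fold change of the 8 genes was 3.06 at the red stage and 3.34 at the green stage, and that of all genes was 0 at each. The red median counts SlSHN1 and SlSHN2 at a fitted value of 0, which stands for no count in either tissue. The green median includes SlSHN1 at 2.98 (SE 1.99), from 2 counts, and SlSHN2 at 5.92. These medians therefore do not rank the stages. In tissue samples, fewer epidermal cells and less transcript per epidermal cell cannot be told apart.

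Of the genes with counts in every exocarp and mesocarp library, SlMYB31 and SlMIXTA-like differed most between skin and flesh. SlMYB31 was higher in exocarp by 5.16 (SE 0.44, adjusted p = 5.28e-05) at the red stage and by 4.51 (SE 0.44, adjusted p = 0.000113) at the green stage. Without green exocarp replicate 2, the green value was 3.69. SlMIXTA-like was higher by 5.09 (SE 0.27, adjusted p = 4.35e-06) in red and by 4.41 (SE 0.24, adjusted p = 5.21e-06) in green exocarp. In mean FPKM these differences were 35.6-fold and 20.9-fold for SlMYB31 and 34.5-fold and 19.7-fold for SlMIXTA-like, red stage first. Among all genes tested, the fold changes of SlMYB31 and SlMIXTA-like lay at the 97.3 and 97.2 percentile at the red stage and at the 97.3 and 97.1 percentile at the green stage.

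Among HD-ZIP IV genes, SlCD2 and Solyc10g005330 had like skin-to-flesh differences. SlCD2 was higher in exocarp by 3.40 (SE 0.10, adjusted p = 3.12e-07) at the red stage and by 3.23 (SE 0.10, adjusted p = 3.42e-07) at the green stage. Solyc10g005330 was higher by 3.53 (SE 0.24, adjusted p = 1.87e-05) and by 3.45 (SE 0.23, adjusted p = 1.36e-05). Solyc03g120620 had smaller differences, 2.32 (SE 0.13, adjusted p = 6.28e-06) at the red stage and 1.31 (SE 0.12, adjusted p = 8.75e-05) at the green stage.

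Woolly was higher in red exocarp by 2.72 (SE 0.65, adjusted p = 0.0115), but this call was lost without red mesocarp replicate 1 (2.21, adjusted p = 0.089), and the value was 3.41 without red mesocarp replicate 2. At the green stage its log2 fold change was 1.54 (SE 0.62, adjusted p = 0.0878). It was 2.66 without green mesocarp replicate 1 (adjusted p = 0.0432) and 1.97 without green exocarp replicate 1 (adjusted p = 0.0322), but 0.92 without green mesocarp replicate 2 (adjusted p = 0.348) and 0.94 without green exocarp replicate 2 (adjusted p = 0.329).

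**Figure D2:**
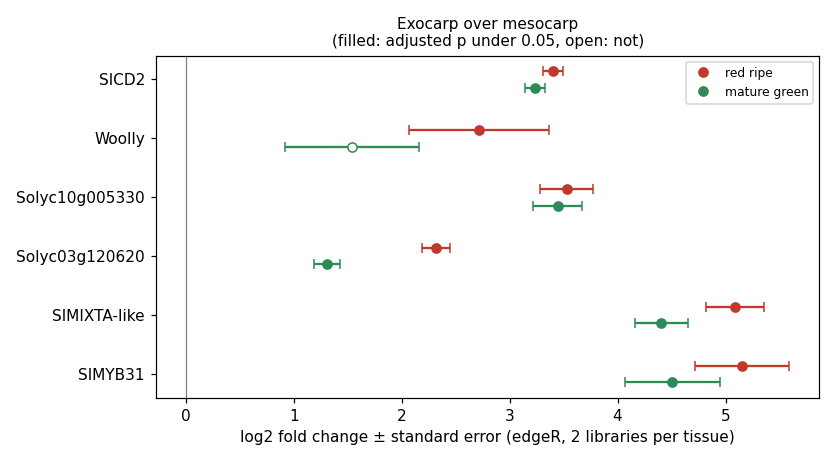
Log2 fold change of exocarp over mesocarp (x axis) with its standard error for 6 genes, red ripe above mature green within each gene, from edgeR's model of all 10 libraries; filled points passed an adjusted p of 0.05. Every point lies right of 0, SlMYB31 and SlMIXTA-like between 4.41 and 5.16, and the green value of Woolly is the only one that did not pass.

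The mesocarp held part of these transcripts. The 6 members with at least 1 FPKM in exocarp had a median of 9.18% of their exocarp FPKM in mesocarp at the red stage (2.81% to 20.3%), and the 6 at the green stage a median of 7.50% (1.69% to 43.8%). The share at the red and the green stage was 2.81% and 4.80% for SlMYB31, 2.90% and 5.06% for SlMIXTA-like, 8.78% and 9.94% for Solyc10g005330 and 9.58% and 11.6% for SlCD2. It was 15.4% and 37.0% for Woolly, which was under 1 FPKM in green exocarp, and 20.3% and 43.8% for Solyc03g120620. SlSHN2 had 1.69% at the green stage. The study picked 12 further genes on these libraries for a low FPKM in leaves and a much lower level in mesocarp than in exocarp. All 12 were called higher in exocarp at both stages, which that choice fixes. SlWSD1 (Solyc01g011430.4), a gene of the wax ester synthase family, is one of the 12. It had 5.57 and 6.19 FPKM in red exocarp, 9.57 and 7.94 in green exocarp, 0.0647 and 0.229 in red mesocarp, 0.159 and 0.0854 in green mesocarp, and 0.398 and 0.495 in leaves.

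The next comparison followed ripening, from the mature green to the red ripe fruit. In exocarp 2 of the 8 genes were called higher in the red stage and 4 lower, where 29.7% of all genes tested were called higher and 32.2% lower. SlMYB31 and SlCD2 rose, and SlSHN2, Solyc10g005330, SlMIXTA-like and Solyc03g120620 fell. Of these, the SlSHN2 call was largely given by the filter on low counts. In mesocarp 1 gene was called higher and 3 lower, against 28.2% and 31.8% of all genes. These shares are near those of all genes, so the count itself does not set the list apart. With library totals, 1 gene was called higher and 4 lower in exocarp, where 4755 of 14061 calls over all genes were higher, and none higher and 3 lower in mesocarp, where 3839 of 13831 were.

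SlMYB31 averaged 60.5 ± 5.48 FPKM in red exocarp and 30.9 ± 18.1 in green exocarp, a log2 fold change of 1.28 (SE 0.35, adjusted p = 0.0123). The size hung on the green replicates, with 0.76 without green exocarp replicate 1 and 2.11 without green exocarp replicate 2, and both passed. Without red exocarp replicate 2 the value was 1.19 and did not pass (adjusted p = 0.0536), nor did it in a fit of the exocarp tissues alone (1.29, adjusted p = 0.0654). In mesocarp SlMYB31 had 1.70 ± 0.271 FPKM at the red stage and 1.48 ± 0.398 at the green stage, a log2 fold change of 0.63 (SE 0.48, adjusted p = 0.285).

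SlCD2 was higher in red than in green exocarp by 0.51 (SE 0.09, adjusted p = 0.000893) and in red than in green mesocarp by 0.34 (SE 0.09, adjusted p = 0.0106). Both are small and depend on the scaling. With library totals in place of TMM, the exocarp value was 0.19 (adjusted p = 0.0648) and the mesocarp value turned to -0.0495 (adjusted p = 0.645), as that scaling moved the median of all genes to -0.28 in exocarp and -0.41 in mesocarp. FPKM is scaled by library totals, and there SlCD2 was lower in red than in green mesocarp. The direction of SlCD2 over ripening in the flesh was therefore not settled by these counts, and the mesocarp call was also lost without red mesocarp replicate 1 (adjusted p = 0.063) or without green mesocarp replicate 2 (adjusted p = 0.0501).

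Solyc10g005330 fell in both layers, by 1.13 (SE 0.20, adjusted p = 0.00126) in exocarp and by 1.21 (SE 0.25, adjusted p = 0.00311) in mesocarp. Solyc03g120620 fell too, with -0.49 (SE 0.12, adjusted p = 0.00664) in exocarp and -1.502 (SE 0.13, adjusted p = 1.59e-05) in mesocarp. Its exocarp value was -0.42 without red exocarp replicate 2 (adjusted p = 0.0502) and -0.31 without green exocarp replicate 1 (adjusted p = 0.0316). SlMIXTA-like dropped by 0.53 (SE 0.20, adjusted p = 0.0439) in exocarp and by 1.22 (SE 0.29, adjusted p = 0.00626) in mesocarp. Its exocarp call is weak, since it was lost without green exocarp replicate 1 (-0.24, adjusted p = 0.285), without red exocarp replicate 2 (-0.30, adjusted p = 0.276) and in a fit of the exocarp tissues alone (-0.51, adjusted p = 0.132). Woolly had a log2 fold change of 0.70 (SE 0.58, adjusted p = 0.324) in exocarp and of -0.47 (SE 0.67, adjusted p = 0.584) in mesocarp. The mesocarp value turned to 0.66 without green mesocarp replicate 1 and 0.038 without red mesocarp replicate 1, with -1.09 without green mesocarp replicate 2 and -1.15 without red mesocarp replicate 2.

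**Figure D3:**
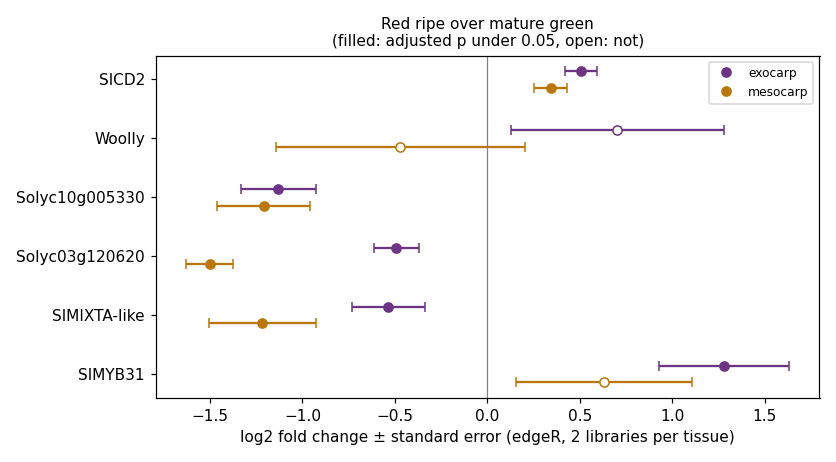
Log2 fold change of red ripe over mature green (x axis) with its standard error for 6 genes, exocarp above mesocarp within each gene, from edgeR's model of all 10 libraries; filled points passed an adjusted p of 0.05. SlMYB31 and SlCD2 lie right of 0, Solyc10g005330, Solyc03g120620 and SlMIXTA-like lie left of it in both layers, and under scaling by library totals the mesocarp value of SlCD2 was -0.0495.

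Whether the skin-to-flesh difference itself changed over ripening was tested as a difference of the log2 fold changes, red minus green. It passed for 1 of the 8 genes, where 21.3% of all genes passed in either direction. Solyc03g120620 had a difference of 1.01 (SE 0.17, adjusted p = 0.00496), with 2.32 at the red stage and 1.31 at the green stage. For the others the differences were 0.17 (SE 0.12, adjusted p = 0.41) for SlCD2, 0.08 (SE 0.32, adjusted p = 0.971) for Solyc10g005330, 0.68 (SE 0.35, adjusted p = 0.219) for SlMIXTA-like, 0.65 (SE 0.59, adjusted p = 0.516) for SlMYB31 and 1.18 (SE 0.89, adjusted p = 0.414) for Woolly. With a library left out, that of SlMIXTA-like ran from 0.42 without red exocarp replicate 1 (adjusted p = 0.454) to 0.97 without green exocarp replicate 1 (adjusted p = 0.0492). That of SlMYB31 was 0.13 without green exocarp replicate 1 (adjusted p = 0.842) and 1.45 without green exocarp replicate 2 (adjusted p = 0.00401). That of Woolly ran from 0.054 without green mesocarp replicate 1 to 1.86 without red mesocarp replicate 2. With no count of SlSHN1 or SlSHN2 in the red tissues, this difference has no usable value for them.

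Leaves served as the tissue outside the fruit, and they carry an epidermis and a cuticle of their own. The same 2 leaf libraries entered each of these comparisons, which are therefore not independent of each other. In red exocarp 4 of the 8 genes were called higher and 2 lower than in leaves, where 35.7% and 40.2% of all genes were. In green exocarp the counts were also 4 higher and 2 lower, where 34.6% and 36.4% of all genes were. In red mesocarp 7 of the 8 genes were called lower than in leaves and none higher, where 41.6% of all genes were called lower and 35.0% higher. In green mesocarp 6 were called lower and none higher, where 35.8% and 32.7% of all genes were. With library totals, 6 genes were lower and 1 higher in green mesocarp, where 9990 of 16133 calls over all genes were higher. These counts include SlSHN1 as lower in every fruit tissue and SlSHN2 as higher in green exocarp, calls largely given by the filter on low counts.

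SlCD2 was higher than in leaves by 1.12 (SE 0.09, adjusted p = 5.01e-06) in red exocarp and by 0.61 (SE 0.09, adjusted p = 0.000271) in green exocarp, with -2.28 (SE 0.09, adjusted p = 9.75e-08) in red mesocarp and -2.63 (SE 0.09, adjusted p = 1.17e-07) in green mesocarp. Solyc03g120620 stood over leaves by 0.99 (SE 0.12, adjusted p = 9.44e-05) in red and by 1.49 (SE 0.12, adjusted p = 9.63e-06) in green exocarp. Its green mesocarp value of 0.18 (SE 0.12, adjusted p = 0.224) did not pass, but with library totals in place of TMM it was 0.59 and did (adjusted p = 0.00398). In red mesocarp it was -1.32 (SE 0.13, adjusted p = 2.07e-05).

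SlMYB31 was higher than in leaves by 1.75 (SE 0.36, adjusted p = 0.00213) in red exocarp. In green exocarp the value was 0.46 (SE 0.35, adjusted p = 0.267), with 0.99 and a call without green exocarp replicate 1 (adjusted p = 0.00024) and -0.32 without green exocarp replicate 2. Its flesh levels lay under leaves by -3.41 (SE 0.42, adjusted p = 8.89e-05) at the red stage and by -4.04 (SE 0.44, adjusted p = 5.58e-05) at the green stage. SlMIXTA-like was higher in green exocarp by 1.04 (SE 0.20, adjusted p = 0.00172). In red exocarp its value of 0.50 (SE 0.20, adjusted p = 0.0478) just passed and was lost in most alternatives, including DESeq2 (0.35, adjusted p = 0.191). It was far lower than in leaves in the flesh, at -4.58 (SE 0.26, adjusted p = 7.5e-07) in red and -3.37 (SE 0.24, adjusted p = 3.97e-06) in green mesocarp.

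Solyc10g005330 was the only HD-ZIP IV gene of the 4 called lower than leaves in all 4 fruit tissues. Its log2 fold changes were -2.00 (SE 0.21, adjusted p = 2.98e-05) in red exocarp, -0.87 (SE 0.20, adjusted p = 0.00422) in green exocarp, -5.53 (SE 0.26, adjusted p = 2.07e-07) in red mesocarp and -4.32 (SE 0.23, adjusted p = 9.18e-07) in green mesocarp. The green exocarp call was lost with limma on log2(FPKM + 0.1) (-0.56, adjusted p = 0.0603) and under the stricter call of an adjusted p under 0.01 and at least 1 on the log2 scale. Woolly had log2 fold changes over leaves of -0.06 (SE 0.57, adjusted p = 0.936) in red exocarp, a value whose sign turned with a library left out, and -0.76 (SE 0.58, adjusted p = 0.266) in green exocarp. It was called lower in red mesocarp, at -2.77 (SE 0.65, adjusted p = 0.00425), and in green mesocarp, at -2.30 (SE 0.63, adjusted p = 0.0105). The green call was lost without green mesocarp replicate 2 (-1.68, adjusted p = 0.0608) or without leaf replicate 2 (-2.06, adjusted p = 0.0552). Without replicate 1 of green mesocarp that value was -3.40, and without replicate 2 of red mesocarp the red value was -3.43.

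Seen as a family, the 4 HD-ZIP IV genes changed their makeup with the tissue. Their summed FPKM in replicates 1 and 2 was 86.7 and 89.4 in red exocarp, 105.6 and 104.2 in green exocarp, 9.38 and 9.69 in red mesocarp, 18.2 and 17.5 in green mesocarp, and 75.7 and 79.6 in leaves. SlCD2 made up 71.6% and 79.2% of the sum in red exocarp and 53.4% and 57.8% in green exocarp. Its share was 68.6% and 64.8% in red mesocarp, 37.1% and 38.4% in green mesocarp, and 39.6% and 39.9% in leaves. Solyc10g005330 had 14.2% and 8.63% in red exocarp, then 26.3% and 25.8% in green exocarp, against 52.0% and 51.8% in leaves, where its share was the largest of the 4. In green mesocarp Solyc03g120620 had the largest share of the 4, at 42.8% and 47.6%, against 7.003% and 6.604% in leaves. Woolly never passed 2.82%. These shares were not tested, and reads that fit more than 1 of these related genes may have been divided between them by a rule that the sources used here do not give.

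**Figure D4:**
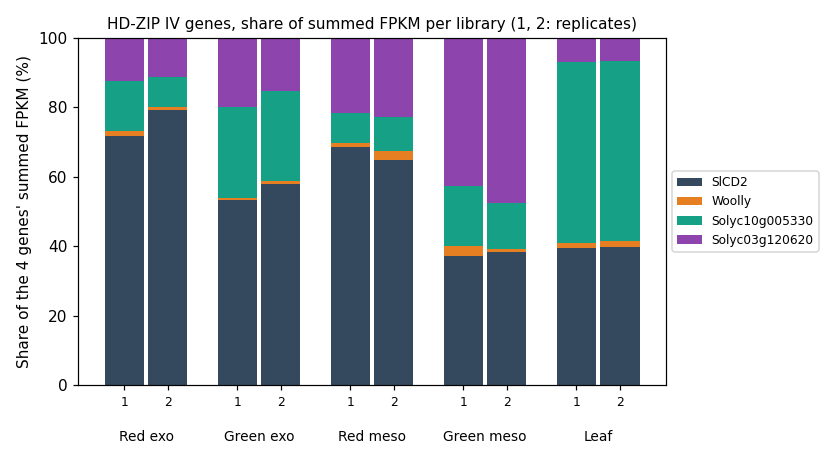
Share of each of the 4 HD-ZIP IV genes in their summed FPKM (y axis, percent) in each of the 10 libraries, with tissues along the x axis and replicates 1 and 2 side by side. SlCD2 filled 53.4% to 79.2% of the exocarp bars, Solyc10g005330 52.0% and 51.8% of the leaf bars, and Solyc03g120620 42.8% and 47.6% of the green mesocarp bars.

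Profiles over the 5 tissues were set side by side as the root mean square difference of the centred log2 CPM, where 0 is an equal shape. Among the 8 genes tested, the closest pairs were SlCD2 with Woolly (0.688), SlCD2 with SlMYB31 (0.734) and SlMIXTA-like with SlMYB31 (0.803). The Woolly profile rests on few counts in the flesh, 14 and 25 in red mesocarp and 44 and 13 in green mesocarp. Its replicates there differed 2.32-fold and 3.58-fold in FPKM. Distances to Woolly are therefore uncertain, and which of these pairs is closest is not settled. The most distant pair was SlSHN1 with SlSHN2, at 3.10, the members of a single family. Each had few or no counts outside a single tissue, so the size of this distance depends on the constant added to CPM before the log. It restates that their counts lay in different tissues, and is no separate measure of how far the pair diverged. Solyc10g005330 was closest to SlMIXTA-like (0.856) and Solyc03g120620 to Woolly (0.857). Of the 12 exocarp genes of the study, SlHH3 was the closest to SlCD2 (0.990), SlMIXTA-like (0.787) and SlMYB31 (0.904). SlWSD1 was the next closest to SlMIXTA-like (1.20) and SlMYB31 (1.08). Over all 22801 genes tested, 34 were at least as close to SlMYB31 as SlCD2 was, and 76 to SlCD2 as Woolly was. Such genes numbered 369 for Woolly with SlCD2, 72 for SlMIXTA-like with SlMYB31, 119 for Solyc10g005330 with SlMIXTA-like and 1923 for Solyc03g120620 with Woolly. With SlHH3 they numbered 357 for SlCD2, 66 for SlMIXTA-like and 69 for SlMYB31. These distances rest on the means of 2 libraries in each of 5 tissues and have no test.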

How the data were processed

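The members and gene lists were chosen with earlier results of these data known. Poly(A) RNA libraries were sequenced and first analysed by a company. The authors deposited a table of raw counts per gene and a table of FPKM for these genes, scaled for transcript length and for the library total. The submitters' processing notes name HISAT2. The counting tool, genome build, annotation and the handling of reads that fit several genes are not given in the sources used here, so related genes are uncertain. Every column of both tables was matched to its library by title. Tissues were taken from the labels.

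Counts were filtered with filterByExpr by tissue, normalized with TMM and fitted with the quasi-likelihood functions of edgeR 4.0.16 (R 4.3.3) in a model of all 10 libraries with 5 residual degrees of freedom, with Benjamini-Hochberg adjustment of the p-values over 22801 genes. The biological coefficient of variation was 0.153. Each standard error is the absolute log2 fold change over the square root of F. No exact permutation test was made, since 2 libraries against 2 cannot reach an exact p of 0.05. Folds against a tissue without counts were computed in TMM-scaled CPM against 3 counts per library. Profile distances used log2(CPM + 0.1). All members were named by the rule set for this work, with the study's 12 exocarp genes as the pathway and exocarp list. The code was tested on simulated data.

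Alternatives were DESeq2 1.42.0, DESeq2 size factors, library totals, no filter, the compared tissues alone, the replicate number as a block, a stricter call (adjusted p under 0.01 and at least 1 on the log2 scale), limma 3.58.1 on log2 FPKM with a pseudocount of 1 or 0.1 for genes with a mean of at least 0.1 FPKM or without that filter, and each library left out in turn. A tissue left with 1 library was assumed to vary like the others. Leaf and ripening marker genes and further cutin and wax enzymes were not used, because no source at hand pairs their identifiers with names, and none of the 41476 genes of the RefSeq table carries such an identifier. Summaries and plots used pandas 2.3.3, scipy 1.17.1, matplotlib 3.10.9 and numpy 2.4.6 under Python 3.11.15.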

Additional observations from a re-analysis of the deposited data

Results flagged for a closer look

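Solyc03g120620, an HD-ZIP IV gene, passed the test of the difference between stages, as did 21.3% of all genes tested in either direction. Its difference lay at the 82.6 percentile of all genes tested. Its exocarp-over-mesocarp log2 fold change was 2.32 at the red stage and 1.31 at the green stage, a difference of 1.01 (SE 0.17, adjusted p = 0.00496 from edgeR). With each fruit library left out in turn, the difference stayed between 0.85 and 1.19 and passed each time. Its level in mesocarp was 2.03 and 2.20 FPKM at the red stage, against 7.76 and 8.33 FPKM at the green stage.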

How the results depend on the processing

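Over the 72 log2 fold changes of the 8 tested genes, 957 of 1030 values under the alternatives kept their side of the threshold with no change of sign (fitted values at 0 counted as no change), 37 lost the call, 19 gained one and 17 changed sign. Of the changes of sign, 4 touched a called value, that of SlCD2 in red over green mesocarp, at -0.0495 with library totals, -0.0709 with limma on log2(FPKM + 1) with and without the filter, and -0.0805 with limma on log2(FPKM + 0.1). The others were of values that had not passed. With limma on log2(FPKM + 1), with and without the filter, the difference between stages was -0.42 for Solyc10g005330 and -0.027 for SlMIXTA-like. With a library left out, the range was -1.15 to 0.66 for Woolly in red over green mesocarp, -0.35 to 0.25 for Woolly in red exocarp over leaves, -0.32 to 0.99 for SlMYB31 in green exocarp over leaves, -5.86 to 0.46 for SlSHN2 in green mesocarp over leaves and -0.29 to 0.37 for the difference between stages of Solyc10g005330. Library totals moved the median of all genes to 0.24 for green exocarp and 0.317 for green mesocarp over leaves, and DESeq2 size factors moved it to -0.313 for red mesocarp over leaves. In red over green exocarp the 6 genes called became 2 under the stricter threshold, and with a library left out 3 to 6. The difference between stages passed for 1 gene, for 2 under each limma setting, where SlSHN2 was added, and for 1 to 2 with a library left out. In the other comparisons the count of genes called stayed within 1.5 times its value under every alternative. The replicate number as a block changed none of the 72 calls, and the counts with the replicate block were 6 of 8 for exocarp over mesocarp at each stage. Differences between replicates 1 and 2 correlated across genes by -0.0445 to 0.0928 between tissues, so the numbers were not taken to pair the samples. With 2 libraries per tissue, and 13 to 147 counts per library for Woolly, differences of that gene are at the limit of what could be detected, and tissues with no count allow only bounds.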
